A study of Homo sapiens with 6 samples.

Results

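The genes described here are 35 human genes of cholesterol and fatty acid synthesis, with the proteins that regulate them and that carry sterols. The rule that selects them is a list of names and holds no measured value. Every probe set whose gene symbol on the array, or another symbol of the same Entrez gene ID, is on the list was taken, which gave 65 probe sets of 45033 on the array. All 35 genes were found, out of 23596 gene symbols. RNA came from HEK293 cells, a widely used line of human embryonic kidney origin, and was read on 6 one-colour NimbleGen arrays in 3 groups of 2. In the first group, cells received a SET8 shRNA and then Wnt3a conditioned medium. In the second, a control shRNA was followed by the same Wnt3a medium, and in the third, a control shRNA by control conditioned medium. In all 3 groups the shRNA was given by transfection about 40 hours before the medium, the medium was left on for 7 hours, and the cells had been grown in medium with serum. SET8, now named KMT5A, places the single methyl group on lysine 20 of histone H4, and Wnt3a is a secreted ligand that stabilises beta-catenin. The study's title names SET8 in the activation of Wnt target genes, and the lipid genes are set beside that question here. The source names call the reagent shRNA, the sample titles shorten it to si and the design text uses both siRNA and shRNA; shRNA is written here. The number of sequences used was not given in the labels, and cells with SET8 shRNA in control medium were not analysed here, so the SET8 comparison speaks only of cells in Wnt3a medium.

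Cholesterol and fatty acids are both built from acetyl-CoA, and their synthesis is switched on by the SREBP transcription factors. SREBF2 encodes the form known mainly for cholesterol genes and SREBF1 the forms known mainly for fatty acid genes. The precursors sit in the membrane of the endoplasmic reticulum bound to SCAP, which escorts them to the Golgi for cleavage when sterols are low. INSIG1 and INSIG2 hold SCAP back when sterols are high, and INSIG1 is itself an SREBP target. Sterol-loaded cells instead export cholesterol through ABCA1 and ABCG1. Proliferating cell lines in culture make much of their own membrane lipid, so these pathways are active in them.

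Promoters of 3 members are shown because the motifs searched for in this family can be read there. INSIG1 and LSS stand near opposite ends of the SET8 shRNA results below, and SREBF2 stands at neither end. Each line is the 250 bases before an annotated start in RefSeq, build GRCh38.p14, 5' to 3' on the gene's strand. Capitals mark TCACNCCAC, a form of the sterol regulatory element to which SREBPs bind, and CCAAT, the NF-Y box that often lies beside it, read as ATTGG on the other strand.
SREBF2 (chr22:41832855-41833104, plus strand): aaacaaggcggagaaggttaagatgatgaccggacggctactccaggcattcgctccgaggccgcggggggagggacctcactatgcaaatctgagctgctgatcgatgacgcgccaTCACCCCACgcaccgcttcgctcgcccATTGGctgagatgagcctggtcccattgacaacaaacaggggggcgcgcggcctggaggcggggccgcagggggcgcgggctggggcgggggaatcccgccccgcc
INSIG1 (chr7:155297628-155297877, plus strand): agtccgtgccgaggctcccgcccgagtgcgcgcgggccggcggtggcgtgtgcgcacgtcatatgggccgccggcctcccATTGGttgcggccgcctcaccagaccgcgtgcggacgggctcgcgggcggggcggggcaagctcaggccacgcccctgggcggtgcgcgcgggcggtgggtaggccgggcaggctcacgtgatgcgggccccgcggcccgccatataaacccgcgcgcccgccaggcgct
LSS (chr21:46228775-46229024, minus strand): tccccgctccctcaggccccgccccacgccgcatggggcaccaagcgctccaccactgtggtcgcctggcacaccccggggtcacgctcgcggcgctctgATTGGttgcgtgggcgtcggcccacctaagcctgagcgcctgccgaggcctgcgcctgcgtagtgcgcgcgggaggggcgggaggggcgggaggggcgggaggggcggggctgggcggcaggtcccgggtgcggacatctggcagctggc
In SREBF2 the 9-letter match lay 133 to 125 bases before the start, and the ATTGG lay 106 to 102 bases before it. The ATTGG of INSIG1 began 170 bases before its start and that of LSS began 150 bases before its start. Promoter windows were held for 30 of the 35 members, as 40 windows. TCACNCCAC, on either strand, was in 1 of the 40 (2.5%), that of SREBF2, against 0.883% of 35116 windows of the same length. CCAAT, on either strand, was in 24 of the 40 (60%), against 32.0% of all windows. The windows of PMVK, FADS1, FADS2, ELOVL6, INSIG2, SREBF1, SCAP, CYP51A1, ABCA1 and NPC1 held neither string of letters. These are matches of letters in a short window and were not tested against the expression values.

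The random control probes of the arrays lay at a log2 intensity of 4.66 to 4.84, and the array medians at 7.63 to 7.79. Of 23808 probe sets tested by limma with Benjamini-Hochberg adjustment, 0 passed an adjusted p of 0.05 for Wnt3a, 0 for SET8 shRNA and 12 for both changes together. The gene targeted by the shRNA, KMT5A, read 8.97 and 9.65 with SET8 shRNA, against 11.20 and 10.53 with control shRNA in Wnt3a medium and 11.03 and 10.75 in control medium (log2 intensity, probe set AY064546). Both SET8 shRNA arrays were thus the lowest of the 6. The Wnt feedback genes NKD1 and AXIN2 read higher in Wnt3a than in control medium by 2.79 and 1.56 on the log2 scale. Markers of the HEK293 line passed the brightness filter in 7 of 7 genes, whereas those of fat cells passed in 0 of 4 and those of liver cells in 0 of 5. PAX2, among the HEK293 markers, passed through 1 array of each group in Wnt3a medium and 0 in control medium. Of 6 fibroblast markers 2 passed, and their list summed to a log2 of 12.14 to 12.27 with SET8 shRNA, 12.58 to 12.79 with control shRNA in Wnt3a medium and 12.49 to 12.58 in control medium. Of 4 blood markers 2 passed, CD68 and HBA1, and the list summed to 9.54 to 9.71 with SET8 shRNA, 10.86 to 10.92 in Wnt3a medium and 10.51 to 10.99 in control medium. Both sums were therefore lower with SET8 shRNA. The fibroblast sum lay close to BC036531 of COL1A1, its brightest probe set. Its means were 12.08 with SET8 shRNA, 12.59 in Wnt3a medium and 12.31 in control medium. NM_000088 of COL1A1 read 11.63, 11.64 and 11.47 in that order, and LUM 6.17, 6.09 and 5.88. On their brightest probe sets COL1A2, COL3A1 and PDGFRB were lowest with SET8 shRNA. Like DCN (5.74, 5.41 and 7.49), they were highest in control medium. The part of both lists in the results below was not tested.

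Most of the pathway was well measured in this kidney-derived line. Of the 35 genes, 29 lay above the array median in all 6 arrays on their brightest probe set, and 31 genes with 57 probe sets entered the test, which asked for a signal above the median in at least 2 arrays. SREBF1 was above the median in 5 arrays and INSIG2 in 2. The 4 genes left out were the sterol carrier STARD4, the sterol uptake protein NPC1L1 and the exporters ABCA1 and ABCG1, which were below the median in all 6 arrays. Mean log2 intensity of the tested genes ran from 7.63 to 13.73. Over the 6 arrays the median range of a tested gene was 0.73 on the log2 scale. In bulk RNA, a smaller share of expressing cells and less RNA per cell cannot be told apart.

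**Figure D1:**
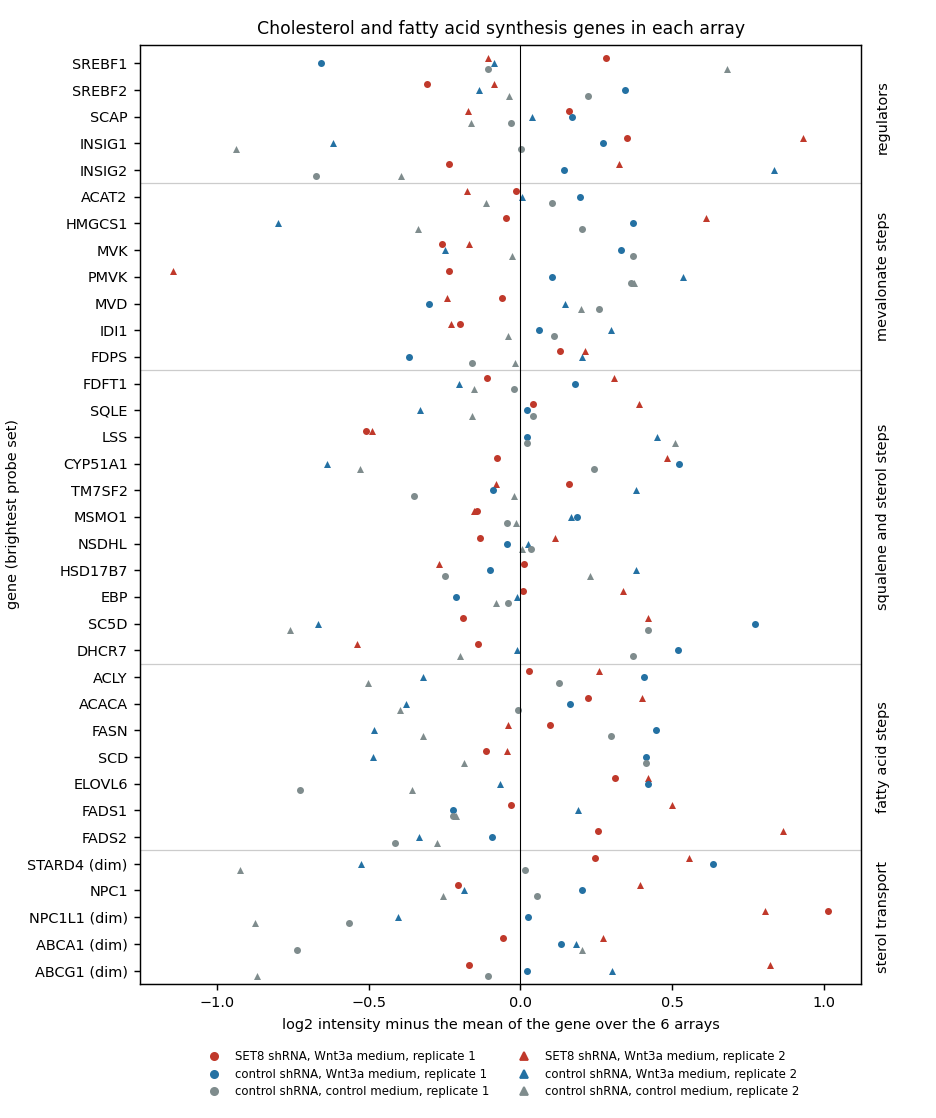
Log2 intensity of each of the 35 genes on its brightest probe set, as the difference from the mean of that gene over the 6 arrays, with the 35 genes down the page by role. Red marks SET8 shRNA in Wnt3a medium, blue control shRNA in Wnt3a medium and grey control shRNA in control medium; circles are replicate 1 and triangles replicate 2. PMVK and LSS lie left in both red arrays and FADS2 lies right in both, while for many genes, such as SC5D and FASN, the blue and grey circles lie right of the blue and grey triangles.

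No gene of lipid synthesis passed the test for Wnt3a medium. In control shRNA cells, 20 of the 31 tested genes (64.5%) read higher in Wnt3a than in control medium, against 54% of all 13071 genes tested, and 11 read lower, with a median log2 fold change of 0.10, against 0.02 over all genes. At an adjusted p under 0.05, 0 of 57 member probe sets and 0% of all 23808 were called by limma, and the smallest adjusted p of any probe set was 0.0575. At an unadjusted p under 0.05 there were 2 member probe sets (3.51%), those of INSIG2 and ELOVL6, against 2.14% of all probe sets. Both were higher in Wnt3a medium, as were 1.61% of all probe sets, and 0 were lower, against 0.529%. INSIG2 had passed the filter on brightness through arrays in Wnt3a medium alone, so its direction was in part set by that filter, and without it the count was 1. In 0 of the 57 did both Wnt3a arrays lie at least 1.5-fold away from both control medium arrays, against 0.643% of all. Without overlap between the groups were 9 of the 57 (15.8%), against 21.1% of all. The members' counts were near the background in this comparison.

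With SET8 shRNA the genes spread both ways. Set against control shRNA in the same Wnt3a medium, 17 of the 31 genes (54.8%) read higher with SET8 shRNA, against 50.7% of all genes, and 14 read lower, with a median of 0.05 against 0.00 over all genes. The highest were INSIG1 and FADS2, and the lowest were the mevalonate enzyme PMVK and the sterol cyclase LSS. None passed: 0 of 57 member probe sets and 0% of all were called at an adjusted p under 0.05 (limma), where the smallest adjusted p of any probe set was 0.0895. At an unadjusted p under 0.05 there were 5 member probe sets (8.77%), against 7.16% of all. Of these, 3 were higher, against 3.76% of all probe sets, and 2 were lower, against 3.41%. Groups separated by 1.5-fold were seen in 0 of the 57, against 3.16% of all probe sets. Groups that did not overlap were seen in 16 of the 57 (28.1%), against 34.1%. Because the control shRNA arrays in Wnt3a medium are the upper group of the Wnt3a comparison and the lower group of this one, the values of a gene in both comparisons are given side by side and not related to each other.

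Both changes together gave the widest differences. In SET8 shRNA cells with Wnt3a medium, 18 of the 31 genes (58.1%) read higher than in control shRNA cells with control medium, against 52.2% of all genes, and 13 read lower, with a median of 0.19, against 0.02 over all genes. At an adjusted p under 0.05, 0 of 57 member probe sets were called by limma, against 0.0504% of all. At an unadjusted p under 0.05 there were 8 member probe sets (14%), against 10.6% of all. Higher were 6 of them, against 6.48% of all probe sets, namely 2 each of INSIG1 and FADS2 and 1 each of ELOVL6 and FADS1. Lower were 2, against 4.07% of all, namely 1 each of PMVK and LSS. In 3 of the 57 (5.26%), against 5.02% of all, the groups were separated by 1.5-fold, and these were PMVK, ELOVL6 and 1 probe set of FADS2. Groups did not overlap in 27 of the 57 (47.4%), against 39.7% of all.

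**Figure D2:**
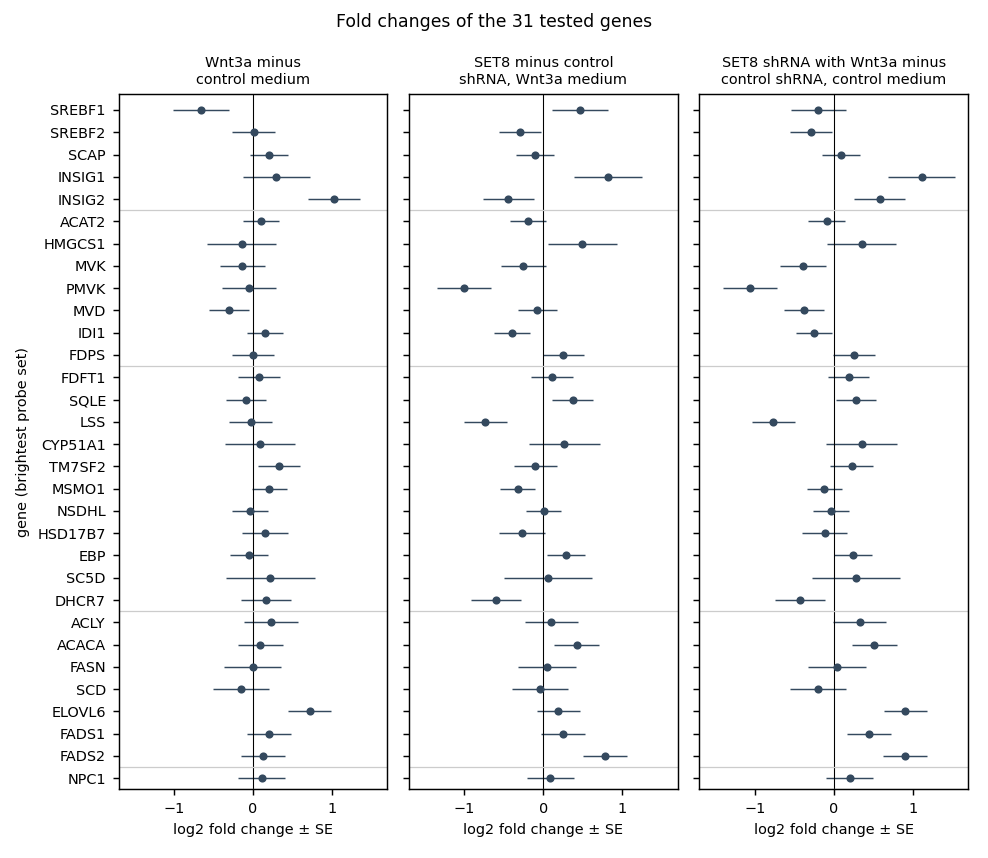
Log2 fold change with its moderated SE from limma for the 31 tested genes (brightest probe set) in the 3 comparisons, with genes down the page by role as in the plot of levels. In the middle and right panels INSIG1 and FADS2 lie right of 0 and PMVK and LSS left of it; no gene passed an adjusted p of 0.05.

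Among the regulators, SREBF2 and SCAP differed least between the groups and INSIG1 and INSIG2 most. SREBF2 read 10.12 and 10.34 with SET8 shRNA, against 10.77 and 10.29 with control shRNA in Wnt3a medium and 10.65 and 10.39 in control medium (log2 intensity here and in all per-array values below). The SET8 shRNA arrays overlapped the Wnt3a arrays, with a log2 fold change of -0.29 and a 95% interval of -0.92 to 0.33. SCAP read 13.63 and 13.30 with SET8 shRNA, 13.64 and 13.51 in Wnt3a medium and 13.44 and 13.31 in control medium, a range of 0.33 over all arrays. SREBF1, whose SREBP-1c form is known as a target of insulin and oxysterol signals in liver, read 8.71 and 8.32 with SET8 shRNA, 7.77 and 8.34 in Wnt3a medium and 8.32 and 9.11 in control medium. Its lowest array was in Wnt3a medium and its highest in control medium, but 2 of these 4 arrays were nearly alike. The Wnt3a fold change was -0.66 (SE 0.35, unadjusted p 0.0998) and that of SET8 shRNA 0.46 (SE 0.35, unadjusted p 0.226).

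INSIG1, the sterol-sensing retention protein on chromosome 7 (154720475 to 154732879 in hg18), had probe sets NM_005542 and BC001880. On NM_005542 it read 11.45 and 12.03 with SET8 shRNA, against 11.37 and 10.48 with control shRNA in Wnt3a medium and 11.10 and 10.16 in control medium. On BC001880 it read 10.98 and 11.61 with SET8 shRNA, against 10.66 and 10.28 in Wnt3a medium and 10.59 and 10.48 in control medium. On both probe sets both SET8 shRNA arrays lay above all 4 control shRNA arrays. The SET8 fold changes were 0.81 (SE 0.43) on NM_005542 and 0.82 (SE 0.29) on BC001880, with unadjusted p of 0.0967 and 0.0245. For both changes together, NM_005542 gave 1.11 (SE 0.43, unadjusted p 0.0343), with an adjusted p of 0.413 by limma over all probe sets, and BC001880 gave 0.76 (SE 0.29). The size rested on single arrays: on NM_005542 the SET8 fold change was 0.37 without replicate 2 of Wnt3a medium and 1.26 without its replicate 1. For Wnt3a alone the probe sets gave 0.30 and -0.06.

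INSIG2, the other retention protein, encoded on chromosome 2, read 7.40 and 7.96 with SET8 shRNA, against 7.78 and 8.47 with control shRNA in Wnt3a medium and 6.96 and 7.24 in control medium. All 4 arrays in Wnt3a medium lay above both in control medium. It was a dim gene, above the median in 1 array of each of the groups in Wnt3a medium. The Wnt3a fold change was 1.03 (SE 0.32), or 2.04-fold, with an unadjusted p of 0.0151 and a limma adjusted p of 1. It was the highest of the 31 genes in that comparison. INSIG2 entered the test only through arrays in Wnt3a medium, so this direction was in part set by the filter. The SET8 fold change was -0.44 and that of both changes together was 0.58.

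The mevalonate steps turn acetyl-CoA into isoprenoid units. Of their 7 genes, 5 read lower and 2 higher (28.6%) with SET8 shRNA than with control shRNA in Wnt3a medium, against 50.7% of all genes higher, and the median was -0.19. At an unadjusted p under 0.05 there was 1 of the 7 (14.3%), against 7.16% of all probe sets. That gene was PMVK, phosphomevalonate kinase, on chromosome 1 (153163833 to 153176091 in hg18). It read 12.74 and 11.83 with SET8 shRNA, against 13.08 and 13.51 with control shRNA in Wnt3a medium and 13.34 and 13.35 in control medium. Both SET8 shRNA arrays lay below all 4 others, although they were 0.91 apart. The fold change was -1.0 (SE 0.34, unadjusted p 0.0205) against control shRNA in Wnt3a medium, with an adjusted p of 0.546 by limma. Against control medium it was -1.06 (SE 0.34, unadjusted p 0.0164), with an adjusted p of 0.316 by limma. Without replicate 2 of SET8 shRNA the difference within Wnt3a medium was -0.55, and without replicate 1 it was -1.46. PMVK had a single probe set, so no second reading of it was at hand.

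The other mevalonate genes had fold changes nearer 0 or above it, and the difference between them and PMVK was not tested. HMGCS1, the HMG-CoA synthase that feeds the pathway, read 10.02 and 10.68 with SET8 shRNA, against 10.44 and 9.27 with control shRNA in Wnt3a medium and 10.27 and 9.73 in control medium, on its brighter probe set AK095492. The groups overlapped, and the SET8 fold change of 0.49 came with an SE of 0.44. MVK, the kinase just before PMVK, read 11.55 and 11.64 with SET8 shRNA, 12.14 and 11.56 in Wnt3a medium and 12.18 and 11.78 in control medium. It was below both control medium arrays in both SET8 shRNA arrays, with a fold change of -0.39 (SE 0.28, unadjusted p 0.212) for both changes together. MVD, the decarboxylase just after PMVK, read 13.00 and 12.82 with SET8 shRNA, 12.76 and 13.21 in Wnt3a medium and 13.32 and 13.26 in control medium. It was highest in control medium, with a Wnt3a fold change of -0.31 (SE 0.25, unadjusted p 0.261). The remaining genes of the group, ACAT2, IDI1 and FDPS, had SET8 fold changes of -0.19, -0.40 and 0.25. IDI1, the isomerase of the isoprenoid units, was lower in both SET8 shRNA arrays (11.81 and 11.78) than in both Wnt3a arrays with control shRNA (12.07 and 12.31), with 12.12 and 11.97 in control medium.

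The squalene and sterol steps were split nearly evenly with all 6 arrays. Of their 11 genes, 6 read higher and 5 lower with SET8 shRNA than with control shRNA in Wnt3a medium, and the median was 0.00. Without replicate 2 of SET8 shRNA, 3 read higher and 8 lower, with a median of -0.125. The median was 0.128 without replicate 1 of SET8 shRNA. Without replicate 2 of control shRNA in Wnt3a medium, 4 read higher and 7 lower, with a median of -0.082. LSS, lanosterol synthase, which closes the sterol rings, had the lowest value among them. On NM_002340 (chromosome 21, 46433466 to 46473119 in hg18) it read 12.16 and 12.18 with SET8 shRNA, against 12.69 and 13.12 with control shRNA in Wnt3a medium and 12.69 and 13.18 in control medium. Both SET8 shRNA arrays lay below all 4 others, with a fold change of -0.73 (SE 0.28, unadjusted p 0.0307) in Wnt3a medium and a limma adjusted p of 0.614. The other probe sets of LSS gave smaller values, -0.13 (SE 0.25) on AK098352 and -0.25 (SE 0.59) on NM_001001438. On NM_001001438 the SET8 shRNA arrays read 10.69 and 11.61, against 12.18 and 10.61 in Wnt3a medium and 11.90 and 10.88 in control medium, so the groups overlapped there.

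DHCR7, the reductase of the last step to cholesterol, came next. On BC000054 it read 13.09 and 12.69 with SET8 shRNA, against 13.75 and 13.22 with control shRNA in Wnt3a medium and 13.60 and 13.03 in control medium. Both SET8 shRNA arrays lay below both control shRNA arrays in Wnt3a medium but not below both in control medium, and the fold change in Wnt3a medium was -0.60 (SE 0.31, unadjusted p 0.0975). Its second probe set gave -0.34 (SE 0.34). TM7SF2, a sterol reductase, read 12.23 and 11.99 with SET8 shRNA, 11.98 and 12.45 in Wnt3a medium and 11.72 and 12.05 in control medium on its brightest probe set. These groups overlapped, with a Wnt3a fold change of 0.33 (SE 0.27), the third highest of the 31. SQLE, the squalene epoxidase that is a rate-limiting enzyme of the sterol branch, had a SET8 fold change of 0.37 (SE 0.26), and FDFT1, squalene synthase, one of 0.11 (SE 0.26). CYP51A1 and EBP, which act on lanosterol and its products, were at 0.26 and 0.29. NSDHL, a decarboxylating dehydrogenase of the C4 demethylation steps, differed least, at 0.00 with a 95% interval of -0.53 to 0.53. HSD17B7, which has near-identical pseudogene copies, was at -0.27. Whether its probes also read those copies was not tested.

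Of the 7 fatty acid genes, 6 read higher with SET8 shRNA than with control shRNA in Wnt3a medium, with a median of 0.19, and 6 read higher than in control medium, with a median of 0.45. The first count rested on 1 array: without replicate 2 of control shRNA in Wnt3a medium, 3 of the 7 read higher and the median was -0.06, and without its replicate 1, 7 read higher and the median was 0.46. Without replicate 2 of SET8 shRNA, 4 of the 7 read higher. Against control medium, 5 to 7 read higher with any 1 array left out, with medians of 0.21 to 0.64. All genes tested had medians of 0.00 and 0.02 in these comparisons, with 50.7% and 52.2% above 0. The gene most different from control shRNA in Wnt3a medium was FADS2, the delta-6 desaturase of polyunsaturated fatty acids. It lies on chromosome 11 (61352288 to 61391401 in hg18), beside FADS1. On AK027513 FADS2 read 12.78 and 13.39 with SET8 shRNA, against 12.43 and 12.19 with control shRNA in Wnt3a medium and 12.11 and 12.25 in control medium. On NM_004265 it read 12.20 and 12.72 with SET8 shRNA, 11.46 and 11.75 in Wnt3a medium and 11.56 and 11.52 in control medium. On both, each SET8 shRNA array lay above all 4 others. The SET8 fold changes were 0.77 (SE 0.28) on AK027513 and 0.86 (SE 0.27) on NM_004265, with unadjusted p of 0.0257 and 0.0135 and limma adjusted p of 0.59 and 0.462. The third probe set, BC009011, gave 0.86 with an SE of 0.56, and its control shRNA replicates were 1.60 apart in Wnt3a medium. On AK027513 the SET8 fold change of FADS2 was 0.47 without replicate 2 of SET8 shRNA and 1.08 without its replicate 1. For both changes together AK027513, NM_004265 and BC009011 gave 0.90, 0.92 and 1.08, and for Wnt3a alone 0.13, 0.06 and 0.22.

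ELOVL6, the elongase that acts on palmitate, was higher in all arrays with Wnt3a medium on its brighter probe set. On NM_024090 (chromosome 4) it read 9.74 and 9.85 with SET8 shRNA, 9.85 and 9.36 with control shRNA in Wnt3a medium and 8.70 and 9.07 in control medium, so that all 4 Wnt3a arrays lay above both others. The Wnt3a fold change was 0.72 (SE 0.27, unadjusted p 0.0314) with a limma adjusted p of 1. Its second probe set gave 0.19 (SE 0.28). For both changes together NM_024090 gave 0.90 (SE 0.27), an unadjusted p of 0.0116 and a limma adjusted p of 0.276. FADS1, the delta-5 desaturase, gave 0.45, 0.73 and 0.14 on its 3 probe sets in the same comparison. SCD, the delta-9 desaturase, read 11.20 and 11.27 with SET8 shRNA, 11.73 and 10.83 in Wnt3a medium and 11.73 and 11.13 in control medium. Its SET8 shRNA arrays lay inside the range of both other groups. FASN, the fatty acid synthase itself, had a SET8 fold change of 0.05 with a 95% interval of -0.81 to 0.90, so differences of that size either way could not be told from none. ACACA and ACLY, which supply malonyl-CoA and cytosolic acetyl-CoA, were at 0.42 (SE 0.28) and 0.10 (SE 0.34).

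Of the sterol transport genes, NPC1, the lysosomal cholesterol exporter, was the single one tested. It read 12.03 and 12.63 with SET8 shRNA, 12.44 and 12.05 with control shRNA in Wnt3a medium and 12.29 and 11.98 in control medium, and the groups overlapped. ABCA1 read 4.96 and 5.29 with SET8 shRNA, 5.15 and 5.20 in Wnt3a medium and 4.28 and 5.22 in control medium on its brightest probe set, close to the random control probes. NPC1L1, known for cholesterol uptake in the gut, was below the array median everywhere and is described because its values, once seen, were ordered by group. It read 7.31 and 7.10 with SET8 shRNA, against 6.32 and 5.89 with control shRNA in Wnt3a medium and 5.73 and 5.42 in control medium. No array of one group overlapped the next. Among the probe sets tested, groups did not overlap in 21.1% for Wnt3a, 34.1% for SET8 shRNA and 39.7% for both changes together. How many probe sets, dim ones included, had the same order of all 3 groups was not counted. When all 45033 probe sets were fitted with no filter, its log2 fold change was 1.64 (SE 0.30) for both changes together and 1.11 for SET8 shRNA in Wnt3a medium. No p is given for it, since the gene was picked for this order.

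**Figure D3:**
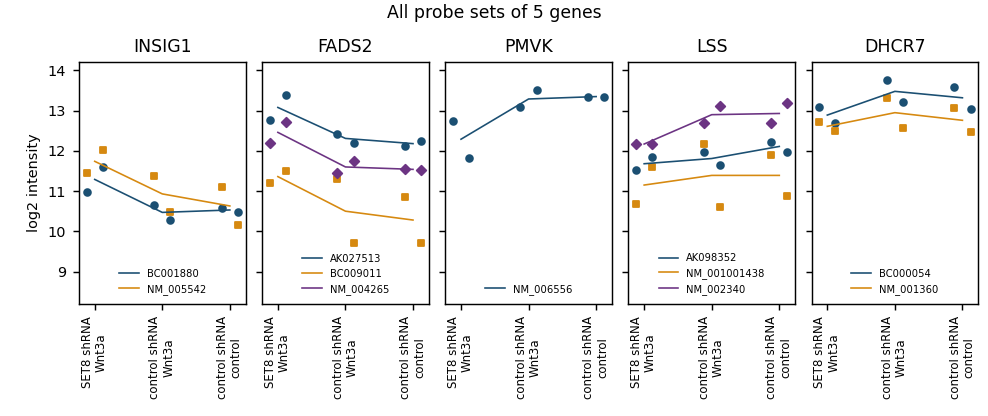
Log2 intensity of every probe set of INSIG1, FADS2, PMVK, LSS and DHCR7 in each array, with replicate 1 left and replicate 2 right in each pair; lines join group means and colours mark probe sets. Both SET8 shRNA arrays stand above the control shRNA arrays on both probe sets of INSIG1 and on 2 of FADS2, and below them for PMVK and on LSS NM_002340; probe sets FADS2 BC009011 and LSS NM_001001438 differ widely between replicates.

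In part of the lipid genes the replicates differed in a shared direction. Over the member probe sets the median gap between replicates was 0.32 in control medium, against 0.33 over all. It was 0.48 with control shRNA in Wnt3a medium, against 0.36, and 0.30 with SET8 shRNA, against 0.27. In control shRNA cells, replicate 1 read higher than replicate 2 in both media for 16 of the 31 genes (51.6%), against 37.9% of all genes tested. Replicate 1 read lower in both media for SREBF1, INSIG2, PMVK, FDPS, LSS, TM7SF2, HSD17B7 and FADS1, and the share of all genes with this order was not counted. In control medium alone, replicate 1 read higher for 64.5% of the 31 genes, against 50.5% of all. In Wnt3a medium alone it did so for 61.3%, against 47.7%. With SET8 shRNA the order was turned in 12 of the 16 genes with replicate 1 higher in both media. Over all genes tested it was turned in 3150 of the 4957 with that order. As shares of every gene tested, higher in both media or not, these are 38.7% of the 31 and 24.1% of all. The median member lay 0.16 above its own mean in replicate 1 of control shRNA with Wnt3a medium and 0.16 below it in replicate 2 of control medium. It lay 0.12 above in replicate 2 of SET8 shRNA and 0.05 below in its replicate 1. The median of all genes stayed within 0.02 in every array. Deviations of same-numbered arrays correlated across the 57 member probe sets at 0.90 between Wnt3a and control medium, against 0.75 over all tested probe sets, and at -0.36 between SET8 shRNA and control shRNA in Wnt3a medium, against -0.29. These probe sets share their arrays and in part their genes, so the values are descriptions.

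Within single genes the pattern depended on the probe set. MSMO1, the C4-methylsterol oxidase, read 11.07 and 11.06 with SET8 shRNA, 11.40 and 11.38 with control shRNA in Wnt3a medium and 11.17 and 11.20 in control medium on NM_001017369. There the replicates were within 0.03. On BC010653 it read 8.97 and 8.81 with SET8 shRNA, 9.73 and 8.17 in Wnt3a medium and 9.54 and 7.50 in control medium. The same gene thus had control shRNA replicates 1.56 and 2.04 apart on that probe set, and those of BC107879 were 2.04 and 1.39 apart. SC5D, the sterol C5 desaturase, read 8.89 and 9.50 with SET8 shRNA, 9.85 and 8.41 in Wnt3a medium and 9.50 and 8.32 in control medium on its brighter probe set. Its SET8 shRNA arrays lay between the replicates of the control shRNA groups. Of the 17 genes with several tested probe sets, the fold changes of all probe sets had 1 sign in 12 genes for Wnt3a, in 14 for SET8 shRNA and in 15 for both changes together. In 0 genes did probe sets differ in sign with both values at least 0.3 from 0.

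**Figure D4:**
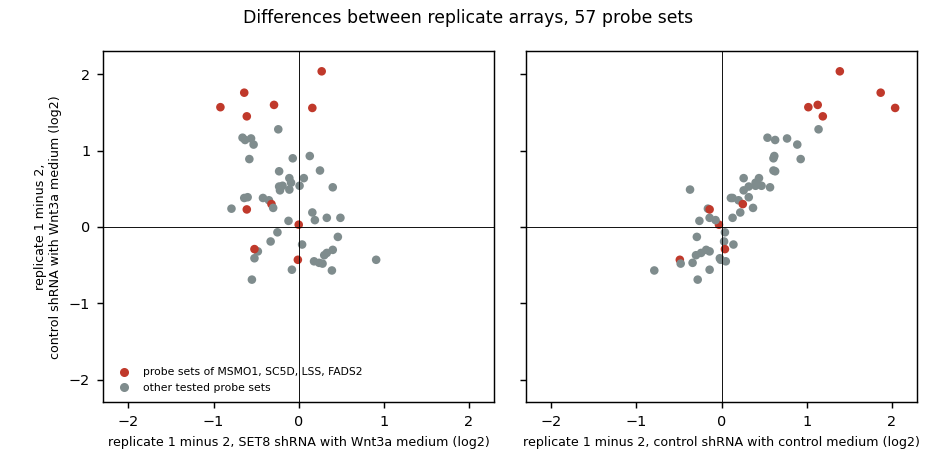
Replicate 1 minus replicate 2 on the log2 scale for the 57 tested member probe sets, with control shRNA in Wnt3a medium on the vertical axis against SET8 shRNA in Wnt3a medium (left) and control shRNA in control medium (right). Red marks all tested probe sets of MSMO1, SC5D, LSS and FADS2, chosen after their values were seen; in the right panel the points run along the diagonal and in the left panel they do not.

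The design limits how small a difference could be seen. For the 31 genes the median 95% interval reached 1.57-fold to either side of the fold change. It held 0 in 29 genes for Wnt3a, 28 for SET8 shRNA and 26 for both changes together. It stayed within 2-fold up or down in 23, 20 and 15 genes in the same order of comparisons. For the other genes an end of the interval reached 2-fold or more, through a wide error, a fold change away from 0, or both. A 2 against 2 comparison cannot give a two-sided exact permutation p below 0.333, so single genes rest on the spread that limma pools over all probe sets.

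A further 22 genes of lipid metabolism were set beside the members, and 20 of them were tested. Of these 20, 0 passed an adjusted p of 0.05 by limma in any comparison. At an unadjusted p under 0.05 there were 0 of 20 for Wnt3a, against 2.14% of all probe sets. For SET8 shRNA there were 3 of 20 (15%), against 7.16% of all, the glucose-responsive lipogenic factor MLXIPL at 0.62 (SE 0.23, p 0.0294), the NPC1-binding protein TMEM97 at -0.78 (SE 0.27, p 0.0215) and the cholesterol-esterifying enzyme SOAT1 at -0.76 (SE 0.24, p 0.0165). Dimmer probe sets of MLXIPL, below the median and not tested, were not higher with SET8 shRNA than with control shRNA in Wnt3a medium. Their means were 7.30 against 7.58 on BC012925 and 6.59 against 6.64 on NM_032953. SOAT1 had passed the filter on brightness through control shRNA arrays alone, so its direction was in part set by that filter. For both changes together there was 1 of 20 (5%), against 10.6% of all, TMEM97 at -0.95 (SE 0.27, p 0.00828). The median SET8 fold change of the 20 genes was -0.12, with 7 above 0 and 13 below, against 0.05 for the 31 members.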

How the data were processed

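Expression was measured on 6 NimbleGen one-colour arrays. The values the authors deposited are linear intensities, 1 for each probe set of an array, made with RMA per the submitters' processing notes (version and settings not given in the sources used here). A deposited column of standard errors, a score on no stated scale, was not used, and the deposited series table holds the same intensity values. Intensities were taken to log2. RMA had already normalised the arrays to each other, which removes shifts that all genes share. Probe sets above the array median in at least 2 of 6 arrays were fitted with a 3-group model in limma 3.58.1 (R 4.3.3; lmFit, then eBayes). Degrees of freedom were 3 residual plus 4.32 prior, the prior SD was 0.282, and p-values were adjusted by Benjamini-Hochberg over 23808 probe sets. The code was tested on simulated data. Each gene is given on its probe set with the highest mean unless another is named. Symbols were updated by Entrez ID through RefSeq (38916 probe sets, 86.4%, matched; SC4MOL is now MSMO1 and SC5DL is SC5D).

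The members and lists were chosen with earlier results of these data known. Genes given per array are SREBF1, SREBF2, SCAP, INSIG1, INSIG2 and, per comparison, the 4 highest and 4 lowest tested members; further probe sets were to be named where they opposed each other, and others were named after their values were seen. Whether replicates came from separate cultures is not stated in the labels, so the p-values reflect only array-to-array spread, possibly technical. Probe positions are hg18 per the file headers. No slide or scan date was used.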

Additional observations from a re-analysis of the deposited data

How the results depend on the processing

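In no comparison was a member probe set called at an adjusted p under 0.05 by limma under the main setting, the planned settings or any array left out; with an array left out, the lone array of its group is taken to vary like the other groups. Calls over all probe sets were 0 for Wnt3a, 0 for SET8 shRNA and 12 for both changes together. For both together they became 0 with no filter, 52 with a filter at the 60th percentile, 6 after quantile normalization, 31 with an intensity trend and 230 with only the 4 arrays compared. For SET8 shRNA they became 15 with the trend and 28 with the 4 arrays, and for Wnt3a 2 with the 60th percentile filter and 2 with the trend. With 1 array left out, calls were 0 to 31 for SET8 shRNA and 0 to 274 for both. Member probe sets at an unadjusted p under 0.05 for Wnt3a became 1 with the 60th percentile filter and 1 with the 4 arrays; with 1 array left out they were 0 to 5 for Wnt3a, 0 to 7 for SET8 shRNA and 0 to 9 for both. Member probe sets separated by 1.5-fold became 1 for SET8 shRNA with no filter and 1 for both after median centring; with 1 array left out they were 0 to 3, 0 to 11 and 3 to 13 in the 3 comparisons. The members' median log2 fold change became 0.025 for Wnt3a and 0.097 for both after median centring; with 1 array left out it was -0.08 to 0.232 for Wnt3a, -0.098 to 0.128 for SET8 shRNA and 0.01 to 0.188 for both. The sign of the Wnt3a and SET8 shRNA medians thus depended on single arrays, namely replicate 1 of Wnt3a medium and replicate 2 of control medium for Wnt3a, and replicate 2 of Wnt3a medium or of SET8 shRNA for SET8 shRNA. The cause was not tested. The replicate numbers did not pair all samples: deviations of same-numbered arrays correlated at 0.75 between Wnt3a and control medium and at -0.29 between SET8 shRNA and either. With the replicate number as a replicate block, calls were 0 in each comparison, and no member was called. With the numbers of the SET8 shRNA arrays crossed, chosen after seeing the data, calls were 3 for Wnt3a, 182 for SET8 shRNA and 792 for both, 8 member probe sets had an unadjusted p under 0.05 for SET8 shRNA, and 1 member probe set was called, NM_005542 of INSIG1 for both changes together. Counts by role with 1 array left out were added after seeing the data.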
